A study of Mus musculus with 6 samples.

Results

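Histone lysine methyltransferases and demethylases are the genes described here, in cultured neural stem cells made to carry large amounts of SETD4 RNA. SETD4 is itself a SET-domain methyltransferase. Members were the protein-coding genes whose symbol belonged to the KMT2, SETD, SETDB, SETMAR, SUV39H, EHMT, NSD, ASH1L, DOT1L, SMYD or PRDM names or to the numbered lysine demethylases KDM1 to KDM8. Setd4 was left out because it was the gene delivered. This gave 61 members among 21884 protein-coding genes and 55802 genes in all. The RNA came from primary neural stem cells of the subventricular zone, the neurogenic wall of the lateral ventricle, of adult wild-type C57BL/6 mice. The cells were kept in a serum-free medium with B27. SETD4 OE cells carried an adenovirus coding for SETD4 and GFP for 24 h, and control cells carried an adenovirus with GFP alone, so every group was infected. There were 3 SETD4 OE libraries and 3 control libraries. The labels gave neither the age and sex of the mice nor whether the libraries of a group came from separate cultures or animals, so p-values measure the spread between these libraries, which may be technical. Unsorted bulk RNA was measured, and with it fewer cells of a type and less RNA per cell cannot be told apart.

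Methyl groups on histone lysines are written mostly by enzymes with a SET domain, and DOT1L writes them without one. They are removed by the flavin-dependent oxidases of the KDM1 pair and by the JmjC dioxygenases, which need iron, oxygen and 2-oxoglutarate. Marks on lysine 4 of histone H3 lie at promoters and enhancers, those on lysine 36 along transcribed genes, and those on lysines 9 and 27 are linked to silencing. The PRDM proteins carry a PR domain, a relative of the SET domain, with zinc fingers, and most act as transcription factors. In the adult subventricular zone these enzymes are studied for their part in keeping stem cells in quiescence or letting them divide and differentiate.

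Setd4 had 295.5, 346 and 333 FPKM in the SETD4 OE libraries, against 0.952, 0.972 and 1.53 FPKM in the control libraries. FPKM is reads scaled by gene length and by the size of the library. Its log2 fold change, taken here and below as SETD4 OE minus control on the log2(FPKM + 1) scale, was 7.25 (limma, Benjamini-Hochberg adjusted p = 3.283e-07), and reads of the virus and of the cells' own gene cannot be told apart in these values. All 10 markers of neural stem cells and astroglia passed the filter on low values, and 7 of them were higher and 3 lower. Sox2 had 190 FPKM in SETD4 OE and 162 FPKM in control libraries, Gfap 1388 against 321 FPKM, Id4 32.2 against 6.16 FPKM, Hes5 31.4 against 6.96 FPKM and Nes 42.7 against 116.5 FPKM. Microglial and endothelial markers were near 0, with summed levels of 1.14 FPKM in SETD4 OE against 0.794 FPKM in control for microglia, and of 0.6003 FPKM against 0.558 FPKM for endothelium. The 8 proliferation genes listed were all lower, with a summed level of 80.2 ± 0.757 FPKM in SETD4 OE and 299 ± 5.55 FPKM in control libraries (SD, n = 3 each). Mki67, which marks dividing cells, had 8.18 ± 0.620 FPKM in SETD4 OE and 26.8 ± 2.24 FPKM in control libraries. Ependymal markers (3 of 3 tested) and oligodendrocyte markers (4 of 4 tested) were higher. Gad1, the sole mature neuron marker tested, had 1.65 FPKM in SETD4 OE and 0.628 FPKM in control. Below the filter, Snap25 had 0.460 and 0.474 FPKM, Slc17a7 0.108 and 0.147, Rbfox3 0.236 and 0.0938, and Syt1 0.177 and 0.141, in that order. Of 4 neuroblast markers tested 1 was higher and 2 lower, and of 3 pericyte and fibroblast markers 2 were higher and 1, Acta2, lower. The neuroblast marker Dcx, just below the filter and not tested, had 1.45 ± 0.112 FPKM in SETD4 OE and 0.533 ± 0.0994 FPKM in control. Gad1, the oligodendrocyte marker Mag and the pericyte and fibroblast markers Col1a1 and Rgs5 averaged under 1 FPKM in control. They passed the filter through their SETD4 OE values, so their calls are no support for a rise. Of the 5 oligodendrocyte precursor markers 4 were higher, while their summed level was lower, 158 FPKM in SETD4 OE against 349 FPKM in control, through Olig2. The part of these shifts in the results below was not tested. Libraries held 14924273 to 18078717 reads. Mitochondrial genes took 3.52 to 3.73% of the reads in SETD4 OE libraries, and 3.78%, 2.45% and 2.45% in the control libraries.

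Of the 61 members, 51 averaged 1 FPKM or more across all 6 libraries and were tested. SETD4 OE libraries were higher for 16 members and lower for 12, and 23 did not pass the test (limma on log2(FPKM + 1), changed at a Benjamini-Hochberg adjusted p under 0.05 over all 12994 genes tested). The number of lower members was 6 without SETD4 OE replicate 1, SETD4 OE replicate 2, control replicate 2 or control replicate 3. Over all tested genes 60.0% changed, 26.0% upwards and 33.9% downwards, and among tested members the shares were 54.9%, 31.4% and 23.5%. The number of changed members was thus near what the whole table gave. The median log2 fold change was 0.07 among tested members and -0.06 among all tested genes, and the median size regardless of direction was 0.21 among members and 0.33 among all genes. With values scaled to equal sums 19 members were higher and 7 lower, and limma-voom on recovered reads gave 20 higher and 8 lower. Over all tested genes the balance moved too, with 3888 higher and 3766 lower at equal sums and 3977 higher and 3969 lower with limma-voom, against 3384 higher and 4406 lower in the values as deposited. Smyd2 was the sole member changed by a log2 value of 1 or more on the log2(FPKM + 1) scale, beside 9.06% of all tested genes. The added 1 shrinks the change of low genes, and with limma-voom Suv39h2 was at -1.17 and Kdm7a at 1.08. The groups did not overlap for 34 tested members, 66.7%, against 66.0% of all tested genes. On the opposite strand 12 members overlap another expressed gene, so their levels are less certain where strand was not used in counting, and without them 13 members were higher and 8 lower. The longest such overlaps among changed members were those of Suv39h2 and of Prdm16, the second with Gm13133 over 7364 bases.

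Among 15 tested JmjC demethylases 10 were higher, 66.7% beside 26.0% of all tested genes, and 2 were lower, 13.3% beside 33.9%, and their summed level was 177 ± 3.24 FPKM in SETD4 OE and 145 ± 1.94 FPKM in control libraries (SD, n = 3 each). Among the 28 tested genes of the methyltransferase side, meaning the SET proteins and Dot1l, 5 were higher, 17.9%, and 9 lower, 32.1%, the second share being near that of all genes, with summed levels of 258.5 ± 4.30 FPKM in SETD4 OE and 269.6 ± 3.73 FPKM in control. Median log2 fold changes were 0.30 for the JmjC genes and 0.01 for the methyltransferase side, beside -0.06 for all genes. The difference between the roles was not tested. Groups follow family and domain, so a few hold relatives whose enzyme activity is unknown or disputed, and activity itself was not measured.

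**Figure D1:**
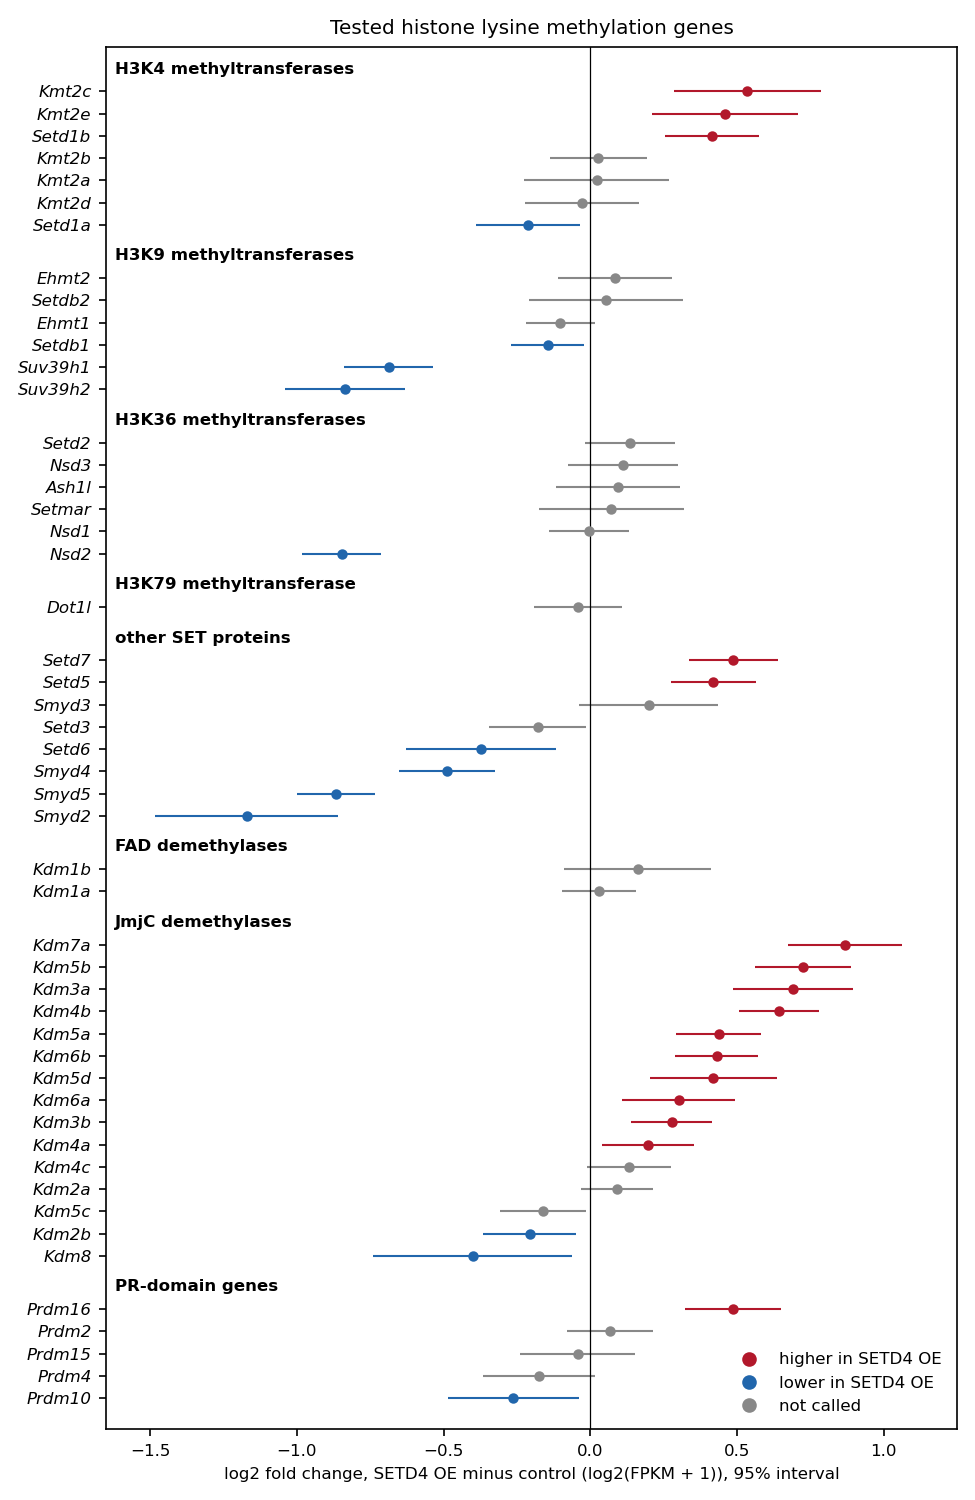
Log2 fold change, SETD4 OE minus control on the log2(FPKM + 1) scale, for 50 tested members grouped by role, with 95% intervals from limma. Points are coloured by call (higher, lower or not called). Most JmjC demethylases lie right of 0, while Smyd2, Smyd5, Nsd2, Suv39h2 and Suv39h1 lie farthest left.

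The JmjC member with the largest rise was Kdm7a, a demethylase of lysines 9 and 27 of histone H3. Kdm7a (chr6:39113557-39183723, mm39, minus strand) had 9.245, 9.13 and 8.21 FPKM in the SETD4 OE libraries, against 4.94, 4.02 and 4.26 FPKM in the control libraries. Every SETD4 OE library was above every control library, and the log2 fold change was 0.87 (SE 0.08, limma adjusted p = 0.0001133). Kdm5b, which removes methyl groups from lysine 4 of histone H3 (chr1:134487909-134563023, plus strand), had 9.205, 10.5 and 9.12 FPKM in SETD4 OE, against 5.60, 5.16 and 5.46 FPKM in control. The groups were well separated, with a log2 fold change of 0.725 (SE 0.07, limma adjusted p = 0.0001173). Kdm3a, an eraser of mono- and dimethyl marks on lysine 9 (chr6:71565956-71609974, minus strand), had 13.7, 15.1 and 13.4 FPKM in SETD4 OE, against 9.33, 7.435 and 8.32 FPKM in control. It rose by 0.69 on the log2 scale (SE 0.09, limma adjusted p = 0.0004494), again with no overlap. Kdm4b, an eraser of trimethyl marks on lysine 9 (chr17:56633062-56709870, plus strand), had 17.1, 16.6 and 17.0 FPKM in SETD4 OE, against 10.1, 11.2 and 10.1 FPKM in control. Its log2 fold change was 0.64 (SE 0.06, limma adjusted p = 8.779e-05), and the SETD4 OE libraries were tightly grouped.

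Other JmjC genes rose less. Kdm5a, a further eraser of lysine 4 marks, had 7.97 ± 0.302 FPKM in SETD4 OE and 5.63 ± 0.323 FPKM in control libraries (log2 fold change 0.44). Kdm6b and Kdm6a, erasers of lysine 27 marks beside Kdm7a, rose by 0.43 and 0.30. The KDM6 pair alone summed to 24.3 ± 0.710 FPKM in SETD4 OE and 18.1 ± 0.159 FPKM in control. Kdm3b rose by 0.28 and Kdm4a by 0.20 on the log2 scale, and the Y-linked Kdm5d by 0.42. The Kdm4a call was lost without SETD4 OE replicate 1 or 3 or control replicate 1 or 3 (limma adjusted p 0.07944 to 0.1098, against 0.03581 with every library), and the Kdm6a call without control replicate 2 (0.05045, against 0.01609). Kdm5d had 2.22, 2.16 and 2.03 FPKM in SETD4 OE libraries, against 1.53, 1.36 and 1.165 FPKM in control libraries. Other Y-linked genes, looked up after these values were seen, did not all move alike: Eif2s3y was higher at 10.6 ± 1.03 FPKM in SETD4 OE and 7.46 ± 0.161 FPKM in control, while Uty had 2.07 and 1.71 FPKM and Ddx3y 7.135 and 6.435 FPKM in SETD4 OE and control and did not pass the test. Xist, made from the inactive X of females, was at 51.2 ± 5.39 FPKM in SETD4 OE and 44.5 ± 7.86 FPKM in control libraries, so that X- and Y-specific RNA was found in every library. Kdm5c and Kdm5d are similar copies on X and Y, and the sources used here do not say how reads shared between them were counted.

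Kdm5c, the lysine 4 eraser on X (chrX:151016016-151057531, mm39, plus strand), was the most abundant demethylase and did not share the rise. It had 32.1, 29.5 and 30.4 FPKM in SETD4 OE libraries, against 32.3, 35.7 and 35.3 FPKM in control libraries, a log2 fold change of -0.16 (SE 0.06, limma adjusted p = 0.05709). The groups did not overlap, and it passed the test without control replicate 1 (limma adjusted p = 0.02195, with a range of 0.02195 to 0.9324 over all the alternatives tried). Kdm2b, which brings a Polycomb complex to CpG islands, fell by 0.21 on the log2 scale, with 3.94 ± 0.122 FPKM in SETD4 OE and 4.705 ± 0.340 FPKM in control (limma adjusted p = 0.03184). Kdm8, a JmjC protein whose histone activity is disputed, fell by 0.40, with 2.08 ± 0.551 FPKM in SETD4 OE and 3.03 ± 0.386 FPKM in control (limma adjusted p = 0.04502). Leaving out single libraries ended both calls (limma adjusted p 0.05004 to 0.1021 for Kdm2b without any library other than control replicate 1, and 0.05778 to 0.1309 for Kdm8 without any other than SETD4 OE replicate 3). Kdm2a, Kdm4c and Kdm5c did not pass the test, with log2 fold changes of 0.09, 0.13 and -0.16, and Kdm4d was below the filter with 0.0436 to 0.3764 FPKM over the 6 libraries.

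The flavin-dependent pair gave no call. Kdm1a, the eraser known as LSD1 that works in complexes with RCOR proteins and histone deacetylases (chr4:136277851-136330034, minus strand), had 28.9, 31.4 and 30.5 FPKM in SETD4 OE libraries, against 29.9, 29.9 and 29.05 FPKM in control libraries. The groups overlapped, the log2 fold change was 0.03 (SE 0.05, limma adjusted p = 0.6375), and the 95% interval ran from -0.09 to 0.16. Kdm1b had a log2 fold change of 0.16 with an interval from -0.09 to 0.41.

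**Figure D2:**
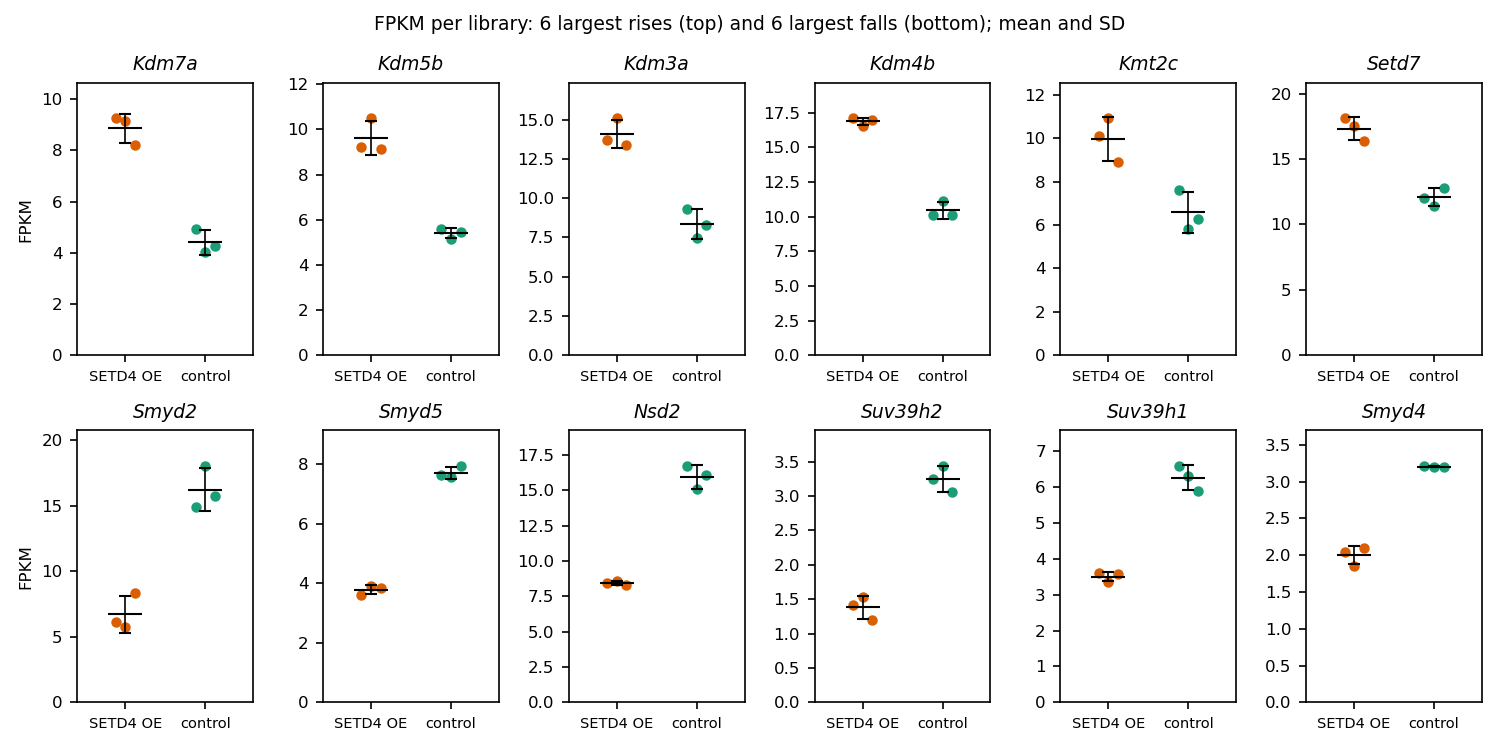
FPKM in each library for the 6 members with the largest rises (Kdm7a, Kdm5b, Kdm3a, Kdm4b, Kmt2c and Setd7, top) and the 6 with the largest falls (Smyd2, Smyd5, Nsd2, Suv39h2, Suv39h1 and Smyd4, bottom), SETD4 OE left of control. Dots are libraries, and the bars give the mean and SD of 3. In all 12 genes the groups do not overlap, which their choice as the largest changes among called members favours. Of all tested genes 66.0% have groups that do not overlap.

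Among the H3K9 methyltransferases, which write marks on lysine 9, the fall was carried by the SUV39H pair, the enzymes of pericentric heterochromatin. Of the 6 tested 3 were lower, 50%, beside 33.9% of all tested genes, and 0 were higher, beside 26.0%. Suv39h1 (chrX:7927410-7940999, mm39, minus strand) had 3.59, 3.35 and 3.565 FPKM in SETD4 OE libraries, against 6.59, 6.29 and 5.88 FPKM in control libraries. It fell by 0.69 on the log2 scale (SE 0.06, limma adjusted p = 0.000104), with every SETD4 OE library below every control library. Suv39h2 (chr2:3456852-3476068, minus strand) had 1.42, 1.53 and 1.20 FPKM in SETD4 OE, against 3.24, 3.44 and 3.065 FPKM in control, a log2 fold change of -0.84 (SE 0.09, limma adjusted p = 0.0001752). It overlaps Dclre1c on the opposite strand over 8316 bases, which had 1.98 FPKM in SETD4 OE and 0.920 FPKM in control, and no source used here says whether reads were counted by strand. The pair summed to 4.88 ± 0.127 FPKM in SETD4 OE and 9.50 ± 0.483 FPKM in control libraries (SD, n = 3 each). The summed level of the proliferation genes was lower in the same libraries, at 80.2 FPKM in SETD4 OE and 299 FPKM in control, and its part in the fall of the pair was not tested.

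The other lysine 9 writers gave small differences or none that passed the test. Ehmt2, the enzyme known as G9a and the most abundant member of all (chr17:35117445-35133028, plus strand), had 38.1, 36.7 and 39.1 FPKM in SETD4 OE libraries, against 31.6, 38.55 and 37.4 FPKM in control libraries. The groups overlapped, and the log2 fold change was 0.08 (SE 0.08, limma adjusted p = 0.405). Its partner enzyme Ehmt1 had a log2 fold change of -0.10 and Setdb2 one of 0.05, and neither passed the test. Setdb1, which silences repeats with TRIM28, had 11.5 ± 0.254 FPKM in SETD4 OE and 12.8 ± 0.470 FPKM in control, a log2 fold change of -0.14 (limma adjusted p = 0.04746). That call was lost when any library was left out, with limma adjusted p from 0.05201 to 0.1373. It was also lost with equal sums, upper quartile scaling, quantile normalization, a replicate block and limma-voom. Of 16 alternative fits it held under 3, and the limma adjusted p reached 0.5931.

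Sequences before the transcription start are shown for the SUV39H pair, which fell together, and for Kdm7a and Kdm5b, the members with the largest rises. They are RefSeq windows of 250 bases before to 50 bases after the annotated start on the GRCm38.p6 build, which is not the mm39 build of the gene coordinates above. A search was made on both strands for TTTGGCGC, TTTCCCGC, TTTCGCGC and TTTGCCGC, which resemble the site of the E2F factors of the cell cycle, and capitals mark a match.
Suv39h1 (chrX:8074312-8074611, minus strand): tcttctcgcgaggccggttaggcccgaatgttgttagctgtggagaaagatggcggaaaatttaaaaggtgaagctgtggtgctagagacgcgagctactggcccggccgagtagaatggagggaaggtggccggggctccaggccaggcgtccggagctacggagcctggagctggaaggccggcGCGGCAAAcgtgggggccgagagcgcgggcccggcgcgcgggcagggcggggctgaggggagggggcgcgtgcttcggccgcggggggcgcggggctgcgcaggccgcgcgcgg
Suv39h2 (chr2:3474937-3475236, minus strand): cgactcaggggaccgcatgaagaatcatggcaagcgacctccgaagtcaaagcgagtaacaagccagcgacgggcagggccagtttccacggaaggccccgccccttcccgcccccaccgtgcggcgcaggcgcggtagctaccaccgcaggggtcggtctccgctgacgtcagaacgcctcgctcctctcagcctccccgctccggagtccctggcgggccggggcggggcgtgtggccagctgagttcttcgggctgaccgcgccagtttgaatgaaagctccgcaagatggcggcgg
Kdm7a (chr6:39206724-39207023, minus strand): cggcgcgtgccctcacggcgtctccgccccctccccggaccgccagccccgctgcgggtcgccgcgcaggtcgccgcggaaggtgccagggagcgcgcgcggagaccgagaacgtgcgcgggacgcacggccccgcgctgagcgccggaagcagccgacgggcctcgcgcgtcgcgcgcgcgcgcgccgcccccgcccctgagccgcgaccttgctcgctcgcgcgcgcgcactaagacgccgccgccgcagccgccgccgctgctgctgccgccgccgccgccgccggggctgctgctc
Kdm5b (chr1:134559928-134560227, plus strand): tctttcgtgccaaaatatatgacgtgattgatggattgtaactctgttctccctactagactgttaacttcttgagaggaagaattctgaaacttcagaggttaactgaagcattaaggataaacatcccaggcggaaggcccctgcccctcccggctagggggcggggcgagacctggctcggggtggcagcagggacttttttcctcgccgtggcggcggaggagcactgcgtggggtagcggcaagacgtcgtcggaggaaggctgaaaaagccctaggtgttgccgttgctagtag

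The Suv39h1 window held GCGGCAAA, which reads TTTGCCGC on the other strand, beginning 64 bases before the start, and a second Suv39h1 window held none. The windows of Suv39h2, Kdm7a and Kdm5b held none of the 4 letter strings. Windows were found for 44 members, of which 2 held a match, Suv39h1 and Prdm4, or 4.55% of them, while 704 of 27025 genes in the table, 2.605%, did. The printed windows had a GC content of 71.0% for Suv39h1, 68.3% for Suv39h2, 82.7% for Kdm7a and 54.7% for Kdm5b, with 37, 33, 65 and 17 CpG dinucleotides in that order.

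Of the 7 H3K4 methyltransferases 3 rose, 1 fell and 3 did not pass the test. The shares were 42.9% higher and 14.3% lower, beside 26.0% and 33.9% of all tested genes. The share called either way, 57.1%, was near the 60.0% of all tested genes. Kmt2c, which writes monomethyl marks at enhancers (chr5:25476796-25703781, mm39, minus strand), had 10.1, 10.9 and 8.91 FPKM in SETD4 OE libraries, against 7.62, 5.835 and 6.29 FPKM in control libraries. The groups did not overlap, and the log2 fold change was 0.54 (SE 0.11, limma adjusted p = 0.003974). Its relative Kmt2d did not pass the test, at 7.09 ± 0.827 FPKM in SETD4 OE and 7.23 ± 0.273 FPKM in control, with a log2 fold change of -0.03. Kmt2e, a relative with no known methyltransferase activity, rose by 0.46, with 12.3 ± 1.23 FPKM in SETD4 OE and 8.70 ± 1.11 FPKM in control (limma adjusted p = 0.00761). Setd1b, the catalytic subunit of a SET1 complex, rose by 0.42 (limma adjusted p = 0.001653), with 5.94 ± 0.398 FPKM in SETD4 OE and 4.20 ± 0.212 FPKM in control. Its counterpart Setd1a fell by 0.21 (limma adjusted p = 0.04223), a call that was lost without any single library other than SETD4 OE replicate 3 (0.05691 to 0.1193). Kmt2a and Kmt2b did not pass the test, with log2 fold changes of 0.02 and 0.03.

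Among the H3K36 methyltransferases the sole change was in Nsd2, which writes dimethyl marks on lysine 36 (chr5:33978069-34055319, plus strand). That was 16.7% of the 6 tested, beside 60.0% of all tested genes. Nsd2 had 8.46, 8.56 and 8.28 FPKM in SETD4 OE libraries, against 16.7, 15.1 and 16.1 FPKM in control libraries. Each SETD4 OE library was far below each control library, and the log2 fold change was -0.85 (SE 0.06, limma adjusted p = 2.418e-05). Its relatives Nsd1 and Nsd3 did not pass the test, with log2 fold changes of -0.00 (95% interval -0.14 to 0.13) and 0.11 (-0.08 to 0.30). Setd2, the writer of trimethyl marks along transcribed genes, had 10.45 ± 0.714 FPKM in SETD4 OE and 9.415 ± 0.398 FPKM in control, a log2 fold change of 0.14, and Ash1l and Setmar had 0.09 and 0.07. Dot1l, the lysine 79 writer, had 16.55 ± 1.07 FPKM in SETD4 OE and 17.1 ± 0.683 FPKM in control and did not pass the test (log2 fold change -0.04).

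The largest fall among all members was in the SMYD group of SET and MYND domain proteins. Smyd2, a methyltransferase with histone and other protein substrates, p53 among them (chr1:189612689-189654560, mm39, minus strand), had 6.11, 5.73 and 8.33 FPKM in SETD4 OE libraries, against 14.9, 18.1 and 15.8 FPKM in control libraries. SETD4 OE replicate 3 was the highest of its group and still below every control library, and the log2 fold change was -1.17 (SE 0.13, limma adjusted p = 0.0002692). Smyd5 (chr6:85408971-85423417, plus strand) had 3.61, 3.89 and 3.83 FPKM in SETD4 OE, against 7.62, 7.58 and 7.94 FPKM in control. It fell by 0.87 on the log2 scale (SE 0.06, limma adjusted p = 2.106e-05), and the libraries of a group lay close together. Smyd4 (chr11:75239259-75296531, plus strand) had 2.05, 1.86 and 2.09 FPKM in SETD4 OE, against 3.22, 3.20 and 3.195 FPKM in control, a log2 fold change of -0.49 (SE 0.07, limma adjusted p = 0.000818). Smyd3 had 1.26 ± 0.0755 FPKM in SETD4 OE and 0.968 ± 0.138 FPKM in control and did not pass the test (log2 fold change 0.20), and Smyd1, known from heart and skeletal muscle, was below the filter with 0.0412 to 0.138 FPKM. The 5 SMYD genes summed to 13.9 ± 1.45 FPKM in SETD4 OE and 28.2 ± 1.70 FPKM in control libraries.

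The remaining SETD genes went in both directions. Together with the SMYD genes, 2 of 8 tested were higher, 25%, and 4 lower, 50%. The shares of all tested genes were 26.0% and 33.9%. Setd7, which monomethylates lysine 4 of histone H3 and other proteins (chr3:51422740-51468300, minus strand), had 18.1, 17.5 and 16.4 FPKM in SETD4 OE libraries, against 12.04, 11.4 and 12.8 FPKM in control libraries. It rose by 0.49 on the log2 scale (SE 0.06, limma adjusted p = 0.000549), with no overlap of the groups. Setd5, a chromatin regulator linked to intellectual disability in humans, rose by 0.42, with 16.3 ± 0.638 FPKM in SETD4 OE and 11.9 ± 0.686 FPKM in control. Setd6, which methylates the NF-kB subunit RELA, fell by 0.37, with 5.75 ± 0.819 FPKM in SETD4 OE and 7.72 ± 0.839 FPKM in control (limma adjusted p = 0.02098, and 0.06437 to 0.07326 without SETD4 OE replicate 1 or 2 or control replicate 2 or 3). Setd3, a histidine methyltransferase of actin (chr12:108072690-108145573, minus strand), had 15.4, 15.3 and 17.1 FPKM in SETD4 OE, against 16.8, 18.7 and 19.0 FPKM in control. Its groups overlapped and it did not pass the test (log2 fold change -0.18, SE 0.07, limma adjusted p = 0.06116), though it did so without SETD4 OE replicate 3 (0.04229) or control replicate 1 (0.02337).

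Of the 14 PR-domain genes 6 were tested. Of these 1 was higher and 1 lower, 16.7% each, beside 26.0% and 33.9% of all tested genes. Prdm16, a transcription factor needed to maintain neural stem cells, was the sole one to rise, with 9.59, 8.26 and 8.565 FPKM in SETD4 OE libraries, against 5.83, 6.30 and 5.84 FPKM in control libraries. The groups did not overlap, with a log2 fold change of 0.49 (SE 0.07, limma adjusted p = 0.0008298). Gm13133, which shares 7364 bases with Prdm16 on the opposite strand, had 1.84 FPKM in SETD4 OE and 0.907 FPKM in control. Whether reads were counted by strand is not given, and the part of Gm13133 in the rise was not tested. Prdm10 fell by 0.26, with 1.75 ± 0.0969 FPKM in SETD4 OE and 2.30 ± 0.3145 FPKM in control (limma adjusted p = 0.04549), a call lost when any library was left out (0.05645 to 0.1215). Prdm2, a zinc finger protein also called RIZ (chr4:142833961-142939565, minus strand), had 9.45, 9.61 and 8.45 FPKM in SETD4 OE, against 8.84, 8.74 and 8.52 FPKM in control, with overlapping groups (log2 fold change 0.07, SE 0.06, limma adjusted p = 0.3887). Prdm4, a zinc finger factor (chr10:85727830-85753006, minus strand), had 8.04, 7.57 and 6.425 FPKM in SETD4 OE, against 8.56, 8.49 and 8.12 FPKM in control. All SETD4 OE values were below the control values, but the difference did not pass the test (log2 fold change -0.175, SE 0.08, limma adjusted p = 0.1016). Prdm15 had a log2 fold change of -0.04 and did not pass the test. The 8 others, Prdm1, Prdm6, Prdm8, Prdm9, Prdm11, Prdm12, Prdm13 and Prdm14, were below the filter, from 0 to 0.895 FPKM in single libraries. The highest of these values was that of Prdm1 in control replicate 1.

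Because several enzymes with a like activity moved apart, the balance within related pairs was set out as the log2 ratio of (FPKM + 1) of the first gene over the second in each library, which is free of the scaling of a library except for the added 1. Of 16 pairs 12 had groups that did not overlap, each with an exact two-sided permutation p of 0.1, the smallest that 3 libraries against 3 can give, and an adjusted p of 0.133. None could therefore pass a threshold of 0.05, and some pairs share a member. Among single genes 66.0% of all those tested had groups that did not overlap, and the share over other gene pairs was not computed. The largest difference was in Smyd2 over Smyd3, at 1.665, 1.525 and 2.09 in SETD4 OE libraries and 3.13, 3.195 and 3.06 in control libraries. Kdm5b over Kdm5c was at -1.58 ± 0.150 in SETD4 OE and -2.47 ± 0.1215 in control, so Kdm5c remained the more abundant but by less. Nsd1 over Nsd2 was at 0.41 ± 0.0599 in SETD4 OE and -0.44 ± 0.0625 in control, so Nsd2 was the more abundant in control cells and Nsd1 in SETD4 OE cells. On average the same exchange of rank was seen for Kmt2c over Kmt2d, at 0.44 ± 0.222 in SETD4 OE and -0.12 ± 0.136 in control, although control replicate 1 was at 0.016, and for Setd1a over Setd1b, at -0.47 ± 0.0841 in SETD4 OE and 0.16 ± 0.0555 in control. Suv39h1 over Suv39h2, Kmt2a over Kmt2b, Kdm1a over Kdm1b and Kdm6a over Kdm6b had overlapping groups.

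**Figure D3:**
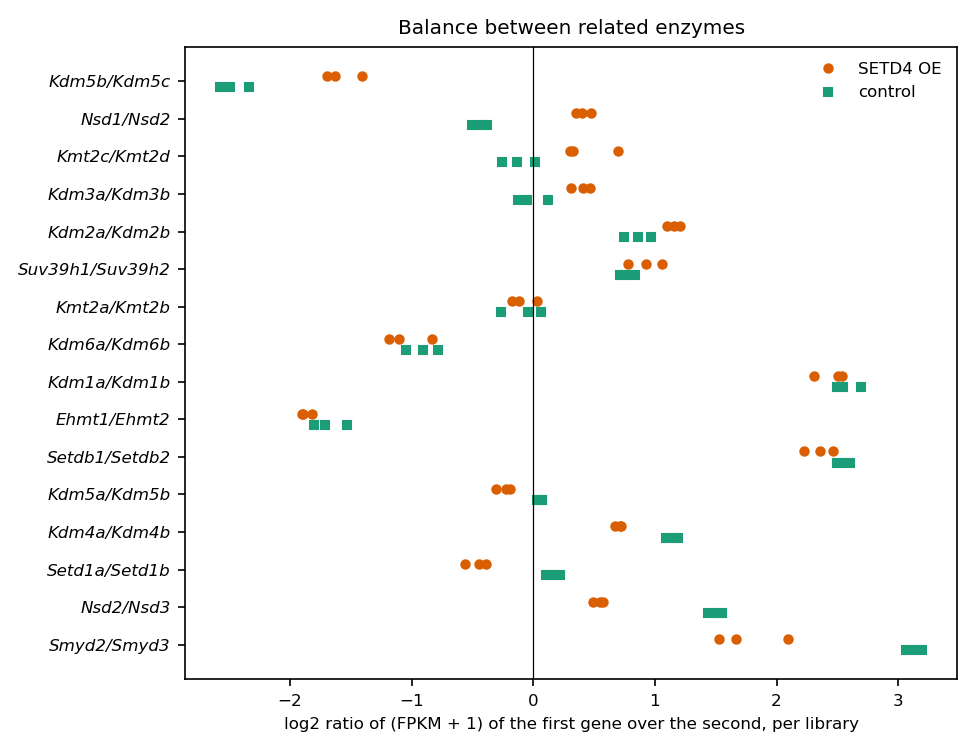
Log2 ratio of (FPKM + 1) of the first gene over the second, for 16 pairs of related members, with 1 point per library, circles for SETD4 OE and squares for control. The groups are farthest apart for Smyd2 over Smyd3, and they overlap for Suv39h1 over Suv39h2, Kmt2a over Kmt2b, Kdm1a over Kdm1b and Kdm6a over Kdm6b.

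Genes that work with the members were read from lists of 49 partners and 14 related enzymes. Of 47 tested partners 4 were higher, 8.51% beside 26.0% of all tested genes, and 24 lower, 51.1% beside 33.9%, with a median log2 fold change of -0.20 beside -0.06 for all genes. The 4 largest falls were in Ahcy, which clears the by-product of methylation (12.1 ± 1.40 FPKM in SETD4 OE and 24.2 ± 4.19 FPKM in control), Dpy30, a subunit of the KMT2 and SET1 complexes (18.1 ± 1.22 and 35.2 ± 2.53 FPKM), Trim28, the partner of SETDB1 (53.0 ± 1.85 and 97.2 ± 2.91 FPKM), and Hdac1, a deacetylase found with LSD1 (26.5 ± 1.135 and 43.1 ± 3.06 FPKM). The core subunits Wdr5 and Ash2l also fell, by 0.47 and 0.40 on the log2 scale, and Rbbp5 had a log2 fold change of -0.21 and did not pass the test. The partners that rose were Rcor2, a scaffold for LSD1, by 0.75, Aff4 by 0.48, Phf21a, a reader in the LSD1 complex, by 0.45, and Atf7ip, a partner of SETDB1, by 0.29. Rcor1, the relative of Rcor2, fell by 0.44, at 9.65 ± 0.339 FPKM in SETD4 OE and 13.4 ± 0.527 FPKM in control, against 13.2 ± 0.533 and 7.48 ± 0.304 FPKM for Rcor2 in SETD4 OE and control.

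Of 13 tested related enzymes outside the naming rule 6 were higher, 46.2%, and 5 lower, 38.5%, beside the same 26.0% and 33.9%. The largest falls were in Kmt5a, the writer of monomethyl marks on lysine 20 of histone H4 (10.5 ± 0.284 FPKM in SETD4 OE and 26.5 ± 0.942 FPKM in control, log2 fold change -1.26), the Polycomb enzyme Ezh2 (8.31 ± 0.471 and 13.4 ± 0.311 FPKM, -0.63), Jmjd6 (-0.61) and Riox2 (-0.54). The largest rises were in Hr, a JmjC demethylase of lysine 9 (23.5 ± 2.83 FPKM in SETD4 OE and 9.05 ± 0.704 FPKM in control, 1.28), Ezh1, the other Polycomb enzyme (3.28 ± 0.382 and 1.98 ± 0.0830 FPKM, 0.52), Jmjd1c (0.43) and Kmt5b (0.35). Jmjd6, Riox2 and Jmjd1c are JmjC proteins as well, so the JmjC genes of this list went in both directions. Among the rest of them, Phf8 was higher (log2 fold change 0.31) and Riox1 lower (-0.46). Phf2 (0.09) and Uty (0.18) did not pass the test. The summed level of the proliferation genes moved in the same direction as Kmt5a and Ezh2, and its part in them was not tested.

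Length was a property that the choice of members did not use. Of the 20 tested members with a gene length of 10000 bases or more 10 were higher and 2 lower, and of the 9 under 5000 bases 1 was higher and 5 lower. Among all tested protein-coding genes the counts were 380 higher and 295 lower of 1176 at 10000 bases or more, and 1519 higher and 2432 lower of 6211 under 5000 bases. Across members, the log2 fold change and the log2 length had a Pearson r of 0.42 and a Spearman rho of 0.39 (n = 51 genes of the same 6 libraries, which are not independent), beside 0.09 and 0.125 across 11268 protein-coding genes. Lengths were those of the deposited tables, and these cut points were chosen after the values were seen. Nsd2, at 16803 bases, fell, and Kdm4b, at 4895 bases, rose, so length and direction did not go together in every member.

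**Figure D4:**
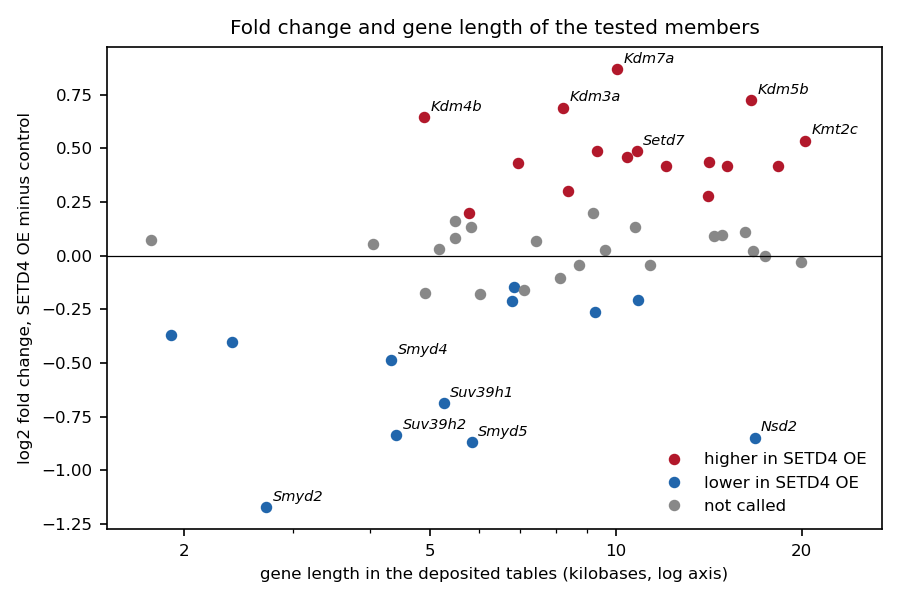
Log2 fold change (SETD4 OE minus control, log2(FPKM + 1) scale) of 50 tested members against gene length in kilobases on a log axis, coloured by call. Most members at 10 kilobases or more lie above 0, with Nsd2 as the clearest one below.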

How the data were processed

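RNA-seq of 6 libraries was used, 3 SETD4 OE and 3 control, with groups and replicate numbers from the sample titles. The authors deposited FPKM values per gene and library in a table per group, per the file headers, with gene length, coordinates and biotype. The submitters' processing notes name HISAT2 2.0.5 and the build mm39, while the counting tool, strand setting, annotation release and read layout are not given in the sources used here. Once scaled by library, FPKM times gene length came to whole reads for 100% of values (tolerance 0.05 reads), which gave the reads behind each gene.

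Values were compared as log2(FPKM + 1) with limma 3.58.1 in R 4.3.3 (mean-variance trend, two-sided, no replicate block) over the 12994 genes that averaged 1 FPKM or more, Benjamini-Hochberg adjusted over all of them, and an adjusted p under 0.05 is called changed. This scale understates the change of low genes. The fit was also run on simulated reads with few changed genes and with libraries scaled by their own sums. The deposited data differ in both, so that run does not check the calls made here. Pair ratios used exact permutation tests (scipy 1.17.1), and figures were drawn with matplotlib 3.10.9. Per-library values are given for the 6 largest rises and falls and for the 2 members of highest mean FPKM among methyltransferases, demethylases and PR-domain genes. Of partners and related enzymes the 4 largest changes each way are named. Wdr5, Ash2l, Rbbp5, Rcor1, Phf8, Riox1, Phf2 and the Y-linked genes were named after their values were seen. The per-library values of Kdm5d and Prdm16 were also added after they were seen. Alternatives were other scalings, quantile normalization, a pseudocount of 0.1, other filters, a replicate block, limma-voom on recovered reads, a minimum log2 change of 0.5 and leaving out each library. The members and lists were chosen with earlier results of these data known. The values of 1 tested member are not reported here, while counts include it. Symbols matching the naming rule but not protein-coding were left out of the members.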

Additional observations from a re-analysis of the deposited data

How the results depend on the processing

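All 28 called members kept their direction under all the alternatives that gave them a value, and 14 of the 16 higher and 6 of the 12 lower members stayed called under all of them apart from the minimum change. Among the other lower members, the call held under 3 of 16 alternatives for Setdb1 and 4 of 15 for Prdm10 and Setd1a. It held under 6 of 15 for Kdm2b and Kdm8 and 11 of 16 for Setd6. Among the higher members it held under 9 of 16 for Kdm4a and 14 of 16 for Kdm6a. Of the 22 members not called whose values are given, 14 stayed so, and Ehmt2, Kdm1a, Kdm2a, Kdm4c, Kdm5c, Setd2, Setd3 and Smyd3 passed the test under at least 1 alternative. The count of lower members, 12, was 7 with equal sums, 5 with a mean of at least 5 FPKM, which tests fewer genes, and 6 with no filter. The sum of recovered reads differed from the library size behind the deposited values by -5.04 to -3.69% in SETD4 OE libraries. In control libraries it differed by 0.634 to 2.75%. Equal sums removes this difference between the groups, which raises SETD4 OE values against control values for every gene. The source of the difference, and the cause of the change with no filter, were not tested. Leaving out each library gave 6 to 10 lower members, with 6 without SETD4 OE replicate 1 or 2 or control replicate 2 or 3, and 15 to 16 higher ones. A minimum log2 change of 0.5 left 5 higher and 5 lower members, and 3 higher and 9 lower genes of the partner and related lists, which had 10 higher and 29 lower without it. For these lists 16 were higher with quantile normalization and 16 with limma-voom on recovered reads, and the cause was not tested. With the replicate number as a block, 14 members were higher and 8 lower. Same-numbered libraries had correlations of -0.0661, -0.229 and 0.0768 of their deviations from the group means. No SETD4 OE library correlated best with the control of its own number. The highest correlations were 0.30, of SETD4 OE replicate 2 with control replicate 1, and 0.21, of SETD4 OE replicate 3 with control replicate 2. The numbers were thus not taken to pair libraries. Members that overlap no other expressed gene, an alternative chosen after seeing the data, gave 13 higher and 8 lower. Among these 22 members, 10 turned sign in 23 values, none of which passed the test. With equal sums Dot1l was at 0.034, Kmt2d 0.043, Nsd1 0.072 and Prdm15 0.0089 on the log2 scale. With quantile normalization Dot1l was at 0.098, Kdm5c 0.0066, Kmt2d 0.014, Nsd1 0.0996, Setdb2 -0.059 and Setmar -0.042. With upper quartile scaling Nsd1 was at 0.012, and with limma-voom Dot1l was at 0.024, Kmt2d 0.036, Nsd1 0.066 and Prdm15 0.0044. Without single libraries Ehmt2 ran from -0.0019 to 0.137, Kmt2a from -0.078 to 0.098, Kmt2b from -0.0405 to 0.073, Kmt2d from -0.107 to 0.037, Nsd1 from -0.037 to 0.036 and Setdb2 from -0.023 to 0.127. The 10 members below 1 FPKM, with 0 to 100 reads in single libraries, were left out by the filter, and with no filter all 61 members were tested.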

Other observations

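Some non-coding RNAs transcribed next to or within members carry their names and are not members. The long non-coding RNA Prdm16os had 11.5, 10.7 and 11.6 FPKM in the SETD4 OE libraries, against 2.785, 3.05 and 2.57 FPKM in the control libraries, a log2 fold change of 1.69 (SE 0.07, limma adjusted p = 3.773e-06), while Prdm16 itself had one of 0.49. Kdm6bos, which lies within Kdm6b on the opposite strand, had 1.13, 0.46 and 0.786 FPKM in SETD4 OE, against 0.297, 0.203 and 0.2245 FPKM in control, with no overlap, and was below the filter and so not tested. Both were chosen after their values were seen, and whether their reads were separated by strand from those of the neighbouring or overlapping member is not given in the sources used here.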
